A study of Homo sapiens with 24 samples.

Results

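The SLC30 zinc exporters were followed as 7 genes, SLC30A1, SLC30A3, SLC30A4, SLC30A5, SLC30A6, SLC30A7 and SLC30A9, out of 19775 genes that had at least 1 single-gene probe set. The 7 were chosen by name, and each was read from its brightest probe set assigned to a single gene, that is the one with the highest mean over all arrays. Of the 7, 6 passed the filter on low values (log2 4 or more on at least 3 arrays), as did 10661 genes in all. SLC30A3, which loads zinc into synaptic vesicles of neurons, had 1 probe set and lay at the floor of the values, 2.18 on the log2 scale, on all 24 arrays. No level or change is given for it.

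The 24 arrays came from 4 human cell lines of T-cell acute lymphoblastic leukaemia, namely TALL-1 (TALL1 in the labels), SUPT11, P12-ICHIKAWA and RPMI-8402. Each line had 3 arrays after 16 h with the solvent DMSO and 3 after 16 h with the compound NVS-ZP7-3, and every group held DMSO at 0.5%. The labels give no dose, no target and no source of the replicates, so a p-value reflects only how far these arrays vary, and that spread may be technical. NVS-ZP7 compounds are known as inhibitors of SLC39A7 (ZIP7), which moves zinc out of the endoplasmic reticulum (ER). Each line is a single established culture and stands for itself.

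Zinc transporters form 2 families that work in opposite directions. SLC30 (ZnT) proteins move zinc out of the cytosol, either across the plasma membrane or into organelles, and SLC39 (ZIP) proteins move it into the cytosol. SLC30A1 is the exporter of the plasma membrane, and its gene is a classical target of the zinc-sensing factor MTF1, as are the metallothionein genes. SLC30A5 pairs with SLC30A6, and SLC30A7 with itself, to load zinc into the early secretory pathway, where enzymes such as alkaline phosphatases take up the metal. SLC30A4 fills vesicles, and SLC30A9 is a transporter of mitochondria.

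Of 10 T-lineage markers, 8 or 9 in every group reached log2 4 on at least 1 array. CD1A was at the floor in SUPT11 and RPMI-8402, and CD2 was at the floor in P12-ICHIKAWA. CD5 in TALL-1 and NOTCH1 in SUPT11 did not reach log2 4 on any array. The summed signal of these markers (log2) lay between 16.06 and 16.12 on the DMSO arrays of TALL-1 and between 15.66 and 15.76 on its treated arrays. In RPMI-8402 it lay between 15.75 and 15.77 with DMSO and between 15.47 and 15.53 with the compound. Smaller shifts were seen in SUPT11 (15.64 to 15.70 and 15.58 to 15.63) and P12-ICHIKAWA (15.88 to 15.94 and 15.78 to 15.82). The part of these shifts in the changes below was not tested. In these bulk samples fewer cells of a type and less RNA per cell cannot be told apart. A check for transcripts that lay at the floor in a line but were abundant in another picked out 3 arrays: treated replicate 2 of TALL-1 (15 of 245 such genes raised), treated replicate 2 of SUPT11 (5 of 129) and DMSO replicate 3 of RPMI-8402 (12 of 118). None of these genes was raised on the other 21 arrays by more than 1 on the log2 scale. The source of the raised transcripts was not tested, and the 3 arrays are called those that stood apart below. The signal of the ACTB control at its 3' end minus its 5' end, a sign of RNA integrity, was higher with the compound by 0.49 in TALL-1 and by 0.30 in RPMI-8402, with no overlap of the arrays (exact permutation p = 0.1 in each, the smallest that 3 against 3 allow), and by 0.048 and 0.044 in SUPT11 and P12-ICHIKAWA. The same difference for GAPDH moved by no more than 0.042 in any line.

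The promoters of SLC30A1, SLC30A5 and SLC30A7 are shown because these 3 genes, picked after their values were seen, had the largest changes of the tested exporters in TALL-1. Each run is the 250 bases before the gene start from RefSeq (GRCh38.p14), 5' to 3' on the strand of the gene, with motif matches in capitals. SLC30A1 is at chr1:211579162-211579411 (minus strand), SLC30A5 at chr5:69093764-69094013 (plus strand) and SLC30A7 at chr1:100895840-100896089 (plus strand).
SLC30A1: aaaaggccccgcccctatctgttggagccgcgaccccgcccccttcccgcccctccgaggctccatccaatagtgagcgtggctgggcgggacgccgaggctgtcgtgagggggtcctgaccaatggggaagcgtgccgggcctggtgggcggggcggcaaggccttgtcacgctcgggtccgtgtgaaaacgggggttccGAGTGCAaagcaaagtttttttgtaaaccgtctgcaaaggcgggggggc
SLC30A5: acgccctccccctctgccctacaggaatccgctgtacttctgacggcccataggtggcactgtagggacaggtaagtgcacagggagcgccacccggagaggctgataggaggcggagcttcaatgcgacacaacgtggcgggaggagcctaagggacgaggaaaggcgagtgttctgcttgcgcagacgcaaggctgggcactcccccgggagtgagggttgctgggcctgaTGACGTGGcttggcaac
SLC30A7: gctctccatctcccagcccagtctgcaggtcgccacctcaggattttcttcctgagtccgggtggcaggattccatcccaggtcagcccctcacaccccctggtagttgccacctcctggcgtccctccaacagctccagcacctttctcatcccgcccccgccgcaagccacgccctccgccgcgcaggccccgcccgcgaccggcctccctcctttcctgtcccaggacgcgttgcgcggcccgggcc

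The search covered both strands of 300 bases, 250 before and 50 after the start, and all 7 genes had a window (8 windows, with 2 for SLC30A3). It used the core of the metal response element bound by MTF1 (TGCACNC or TGCGCNC), the unfolded protein response element (TGACGTGG), a composite C/EBP-ATF core (TGATGCAA) and the ER stress response element (CCAAT, any 9 bases, CCACG). In the SLC30A1 window GAGTGCA, the reverse complement of a metal response core, was found at -49 to -43, as capitalised above, and again at 24 to 30, counting the first base of the gene as 0. At least 2 metal cores occur in 8.60% of the 35116 windows of this length in the table, and at least 1 in 29.6%. SLC30A6 and SLC30A4 held 1 metal core each, at -128 to -122 and -124 to -118. SLC30A3 held 1 in one window and 2 in the other. SLC30A5 held an unfolded protein response element at -17 to -10, a match found in 0.729% of windows. SLC30A7 and SLC30A9 held no match. Neither the ER stress response element (0.0769% of windows) nor the C/EBP-ATF core (0.866%) occurred in any window of these 7 genes. These matches describe letters in a window and say nothing of binding.

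Read from the brightest probe sets, SLC30A1 and SLC30A4 differed most between the untreated lines. The transporters of the early secretory pathway and mitochondria differed little by that reading. All 6 tested genes differed among the 4 DMSO groups (limma F test, Benjamini-Hochberg adjusted p from 3.84e-22 to 0.0142), but so did 96.3% of all tested genes. Between pairs of lines, 5 of 6 exporters differed for TALL-1 against SUPT11 (78.9% of all tested genes), 5 for TALL-1 against P12-ICHIKAWA (70.3%), 6 for TALL-1 against RPMI-8402 (70.8%), 4 for SUPT11 against P12-ICHIKAWA (77.4%), 5 for SUPT11 against RPMI-8402 (79.7%) and 5 for P12-ICHIKAWA against RPMI-8402 (65.0%). These shares lie near the background of each pair. Levels are compared only within a probe set, since probe sets differ in how they bind.

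SLC30A1, the plasma membrane exporter, was highest in SUPT11, where the DMSO arrays read 12.02, 12.14 and 12.11 (mean 12.09 ± 0.063 SD, n = 3, log2 expression). TALL-1 followed with 10.89, 10.99 and 11.02 (10.97 ± 0.066), then P12-ICHIKAWA with 10.62, 10.72 and 10.67 (10.67 ± 0.053). RPMI-8402 was lowest with 9.92, 9.73 and 9.90 (9.85 ± 0.10). The groups did not overlap, all 6 pairs of lines differed, and SUPT11 stood 4.73-fold above RPMI-8402 (95% interval 4.35 to 5.14). A second probe set of SLC30A1 also read highest in SUPT11 (8.33 ± 0.12) but ordered the rest differently, with P12-ICHIKAWA at 6.88 ± 0.19, RPMI-8402 at 6.60 ± 0.32 and TALL-1 at 6.33 ± 0.55 (SD, n = 3).

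SLC30A5, the larger partner of the heterodimer, spanned 0.47 between the highest and lowest DMSO mean, a 1.38-fold range. Its means were 12.88 ± 0.023 in SUPT11, 12.80 ± 0.063 in P12-ICHIKAWA, 12.74 ± 0.078 in TALL-1 and 12.41 ± 0.063 in RPMI-8402 (SD, n = 3). RPMI-8402 was below each of the other lines, and SUPT11 stood above TALL-1 by a narrow margin (limma adjusted p = 0.046). P12-ICHIKAWA did not differ beyond the spread from TALL-1 (adjusted p = 0.453) or SUPT11 (adjusted p = 0.223). Another probe set of SLC30A5 read 11.03 ± 0.11 in P12-ICHIKAWA, 10.90 ± 0.092 in RPMI-8402, 10.40 ± 0.040 in SUPT11 and 9.88 ± 0.12 in TALL-1. The remaining probe sets of SLC30A5 had their lowest mean in RPMI-8402. SLC30A6, the partner of SLC30A5, spanned 0.75 in the order SUPT11 (12.71 ± 0.013), P12-ICHIKAWA (12.50 ± 0.091), RPMI-8402 (12.25 ± 0.039) and TALL-1 (11.97 ± 0.041). All 6 pairs differed. The SLC30A7 order was another one, with P12-ICHIKAWA highest (13.21 ± 0.14), then RPMI-8402 (12.996 ± 0.022), SUPT11 (12.81 ± 0.021) and TALL-1 (12.73 ± 0.14). SUPT11 and TALL-1 did not differ for SLC30A7 (adjusted p = 0.308), and the other 5 pairs did. The line lowest in SLC30A1 and SLC30A5 by their brightest probe sets, RPMI-8402, was second highest in SLC30A7.

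SLC30A4, the vesicular exporter, was near the floor in 1 line and well above it in the other 3. SUPT11 read 11.37, 11.36 and 11.32 with DMSO, RPMI-8402 read 11.10, 10.99 and 10.98, and P12-ICHIKAWA read 8.33, 9.02 and 8.80. TALL-1 read 2.22, 2.61 and 2.18, at or near the floor, so no fold is given against it. SUPT11 was 6.21-fold above P12-ICHIKAWA (95% interval 5.19 to 7.43), and 1.25-fold above RPMI-8402 (1.05 to 1.499, limma adjusted p = 0.0215). Its other 2 probe sets lay at or near the floor, so the pattern rests on 1 probe set. By its brightest probe set, SLC30A9, the mitochondrial member, varied least. Its means ran from 13.75 ± 0.038 in TALL-1 through 13.85 ± 0.013 in RPMI-8402 to 13.90 ± 0.059 and 13.90 ± 0.054 in P12-ICHIKAWA and SUPT11. By this reading TALL-1 was lower than each other line (limma adjusted p between 0.00566 and 0.0486), and the other 3 lines did not differ from each other. The second probe set of SLC30A9 gave another order and a wider range of DMSO means. It was lowest in RPMI-8402 (8.22 ± 0.13), then P12-ICHIKAWA (8.61 ± 0.15), with TALL-1 (9.29 ± 0.17) below SUPT11 (9.55 ± 0.034) only.

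**Figure D1:**
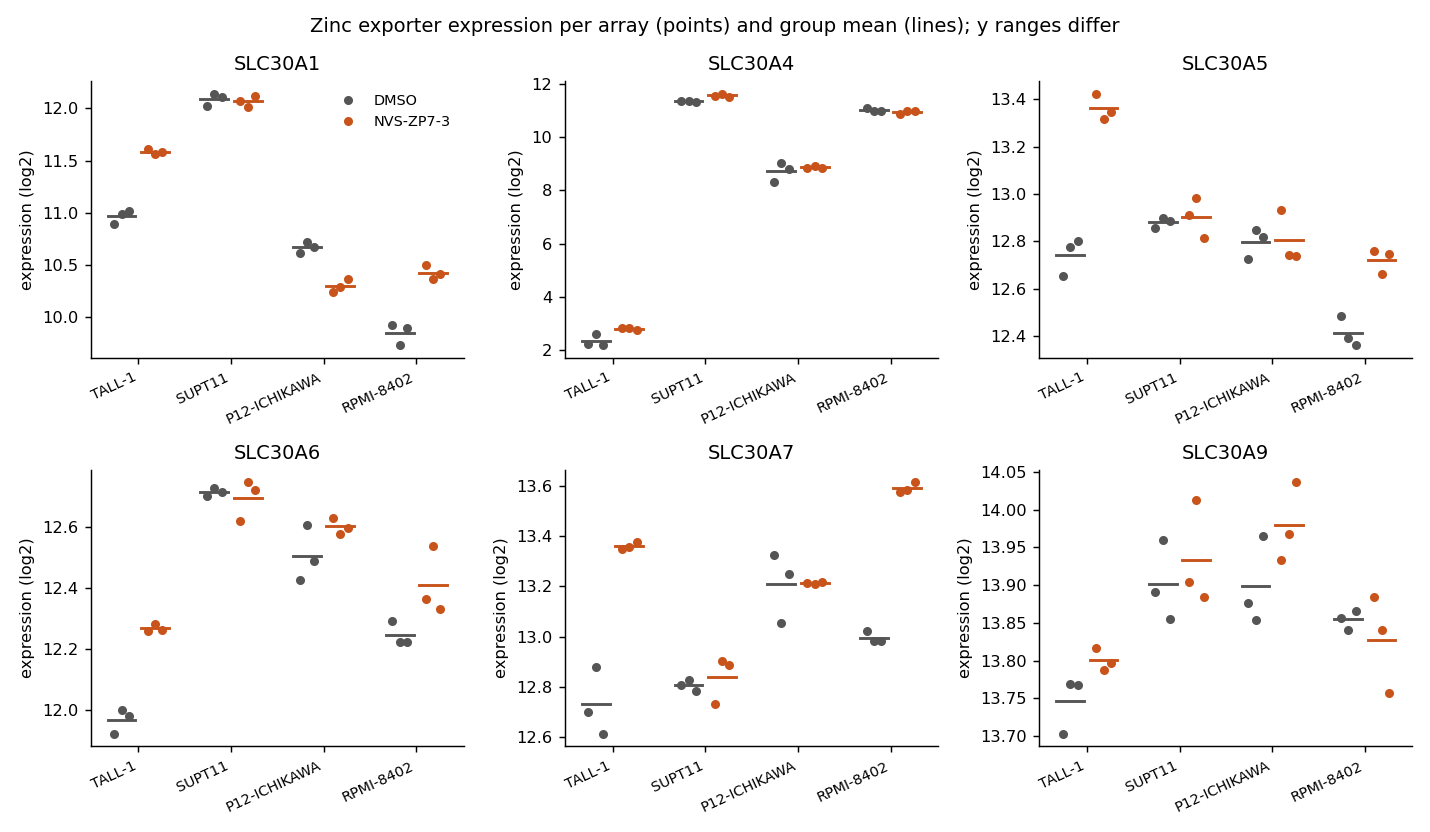
Log2 expression of the 6 tested exporters on each array (points, 3 per group) and group means (lines) by line, with DMSO in grey and NVS-ZP7-3 in orange; each panel has its own y range. SLC30A1, SLC30A5, SLC30A6 and SLC30A7 stand higher with the compound in TALL-1 and RPMI-8402, SLC30A1 stands lower in P12-ICHIKAWA, and SLC30A9 moves little.

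With NVS-ZP7-3, exporters rose in TALL-1 and RPMI-8402, none was called in SUPT11, and 1 fell in P12-ICHIKAWA. In TALL-1, 5 of 6 tested exporters were called higher (22.3% of all tested genes) and 0 lower (19.6%). One of the 5, SLC30A4, lay near the floor in TALL-1 on all arrays (2.18 to 2.82, below the filter of log2 4) and passed the filter through the other lines, so 4 were called at a level above the filter. In RPMI-8402, 4 were called higher (15.1%) and 0 lower (21.5%). With the mean of all probe sets of a gene RPMI-8402 instead had 3 higher and 1 lower. SLC30A6 was then not called (0.064, limma adjusted p = 0.323) and SLC30A9 was called lower (-0.18, adjusted p = 0.00641). The mean for SLC30A6 includes probe sets at the floor on all arrays, which did not change, so its value is pulled toward 0. In SUPT11 limma called 0 higher (1.18%) and 0 lower (0.582%), and 0 exporters had an unadjusted p under 0.05 there. The other counts of 0 were also 0 at that unadjusted threshold. In P12-ICHIKAWA, 0 were called higher (4.91%) and 1 lower (2.98%). On average over the 4 lines, 5 were called higher (22.4%) and 0 lower (24.5%), with mean changes of 0.31 for SLC30A7, 0.24 for SLC30A5, 0.20 for SLC30A1, 0.19 for SLC30A4 and 0.13 for SLC30A6. The mean of SLC30A4 includes its near-floor change of 0.45 in TALL-1, was 0.10 over the other 3 lines, and was not called without the 3 arrays that stood apart (limma adjusted p = 0.0702). The median change of the 6 was 0.54 in TALL-1 (0.62 over the 5 without SLC30A4) and 0.24 in RPMI-8402, against -0.022 over all tested genes in RPMI-8402 and less than 0.01 in TALL-1. It was 0.027 in SUPT11 and 0.044 in P12-ICHIKAWA, where the median over all genes was also less than 0.01.

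SLC30A1 rose in 2 lines and fell in 1. The treated arrays of TALL-1 read 11.61, 11.56 and 11.59, all above the DMSO arrays given above, a change of 0.62 ± 0.057 (SE, log2; 1.53-fold, limma adjusted p = 7.10e-08). RPMI-8402 read 10.50, 10.36 and 10.42 after treatment, again all above its DMSO arrays, a change of 0.57 ± 0.057 (1.49-fold, limma adjusted p = 2.69e-07). P12-ICHIKAWA moved the other way, to 10.24, 10.29 and 10.36, all below its DMSO arrays, a change of -0.37 ± 0.057 (0.774-fold, limma adjusted p = 0.000327). SUPT11, the line with the most SLC30A1, read 12.07, 12.01 and 12.12, which overlapped its DMSO arrays (-0.024, 95% interval -0.14 to 0.096).

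Without the 3 arrays that stood apart the change of SLC30A1 was 0.63 in TALL-1 and 0.60 in RPMI-8402. With the ACTB difference as a covariate it was 0.70 and 0.63, and limma still called it in each case. In P12-ICHIKAWA the treated arrays also carried HBB, the beta-globin gene, at 11.45, 8.17 and 7.96 against 2.18 to 2.29 with DMSO, and LYZ, a myeloid gene, at 5.50 to 8.01 against 2.28 to 2.99. Of the 3 erythroid markers with a probe set, HBD and ALAS2 were at the floor on these arrays, as were 4 of 5 myeloid markers, including the defining CD14 and MPO. HBB was also present elsewhere. RPMI-8402 read 9.42, 2.32 and 14.65 with DMSO, where replicate 3 also carried LYZ at 12.54, and 10.48, 8.63 and 12.99 after treatment. HBD, ALAS2, S100A8 and S100A9 exceeded log2 4 on at least 1 DMSO array of RPMI-8402. For HBB the treated arrays read 2.18, 10.61 and 4.58 in SUPT11 and 7.96, 2.18 and 2.18 in TALL-1. LYZ too was present elsewhere. In TALL-1 it read 5.43, 8.615 and 2.18 with DMSO and 9.04, 2.19 and 2.26 after treatment. It read 6.95 on treated replicate 2 of SUPT11 and 6.25, 4.91 and 9.88 on the treated arrays of RPMI-8402. With HBB as a covariate SLC30A1 changed by -0.41 in P12-ICHIKAWA (limma adjusted p = 0.00166). HBB did not overlap between treated and DMSO arrays in P12-ICHIKAWA. The adjustment there rests on a slope from the spread within the groups of all lines, so it cannot separate HBB from the compound. In RPMI-8402 SLC30A1 changed by 0.56 with this covariate (adjusted p = 7.71e-07). The RPMI-8402 changes of SLC30A5, SLC30A6 and SLC30A7 were 0.29, 0.16 and 0.59, all called. The fall did not appear in the second probe set, which changed by 0.35 ± 0.24 in P12-ICHIKAWA (adjusted p = 0.463), by 0.86 ± 0.24 in TALL-1 (adjusted p = 0.00649), by 0.83 ± 0.24 in RPMI-8402 (adjusted p = 0.00925) and by 0.19 ± 0.24 in SUPT11. The rises in TALL-1 and RPMI-8402 were thus called with both probe sets and the fall with 1. Another probe set lay at the floor on all arrays.

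The SLC30A5 and SLC30A6 pair rose in the same 2 lines, SLC30A5 by more. SLC30A5 went from 12.65, 12.78 and 12.80 to 13.42, 13.32 and 13.35 in TALL-1, with no overlap (0.62 ± 0.061, 1.53-fold, limma adjusted p = 1.56e-07). In RPMI-8402 it went from 12.48, 12.39 and 12.36 to 12.76, 12.66 and 12.75, again with no overlap (0.31 ± 0.061, 1.24-fold, adjusted p = 0.00055). The rise in TALL-1 exceeded that in RPMI-8402 by 0.31 ± 0.086 (limma adjusted p = 0.0139). In SUPT11 (0.023, 95% interval -0.10 to 0.15) and P12-ICHIKAWA (0.0077, -0.12 to 0.13) treated and DMSO arrays overlapped. SLC30A5 had 5 probe sets above log2 4, and 4 of them were called higher in TALL-1, with changes from 0.58 to 0.88, while the last changed by 0.16 (adjusted p = 0.0851). In RPMI-8402 3 of the 5 were called higher (0.31 to 0.39), and the other two changed by 0.20 and 0.12. Without the 3 arrays that stood apart the SLC30A5 changes were 0.64 and 0.28 in TALL-1 and RPMI-8402, and with the ACTB covariate 0.75 and 0.39, all called.

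SLC30A6 went from 11.92, 12.001 and 11.98 to 12.26, 12.28 and 12.26 in TALL-1, a rise of 0.30 ± 0.054 (1.23-fold, limma adjusted p = 0.000182) with no overlap, and 0.29 without the treated array that stood apart. In RPMI-8402 the arrays read 12.29, 12.22 and 12.22 with DMSO and 12.36, 12.54 and 12.33 after treatment, a rise of 0.16 ± 0.054 (1.12-fold, limma adjusted p = 0.0223). The groups did not overlap there, but the call was lost without DMSO replicate 2 (adjusted p = 0.0696), DMSO replicate 3 (0.067) or treated replicate 2 (0.147) of RPMI-8402, without the 3 arrays that stood apart (0.0853) and with the ACTB covariate (0.0709), all by limma. The second probe set of SLC30A6 above log2 4 changed by 0.22 ± 0.14 in TALL-1 and 0.093 ± 0.14 in RPMI-8402 and was not called in either. SUPT11 and P12-ICHIKAWA showed overlapping arrays (-0.020, 95% interval -0.13 to 0.093, and 0.095, -0.018 to 0.21).

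SLC30A7, the homodimeric transporter of the early secretory pathway, rose in the same 2 lines. TALL-1 went from 12.70, 12.88 and 12.61 to 13.35, 13.35 and 13.38 (0.63 ± 0.065, 1.54-fold, limma adjusted p = 3.38e-07). RPMI-8402 went from 13.02, 12.98 and 12.98 to 13.57, 13.58 and 13.61 (0.59 ± 0.065, 1.51-fold, adjusted p = 1.02e-06). In both lines every treated array lay above every DMSO array, and the difference between the 2 rises was 0.034 (95% interval -0.16 to 0.23). The 2 other probe sets moved the same way in TALL-1 (0.77 and 1.11, both called) and in RPMI-8402 (0.83, called, and 0.64, adjusted p = 0.186). Arrays overlapped in SUPT11 (0.035, 95% interval -0.10 to 0.17) and P12-ICHIKAWA (0.0035, -0.13 to 0.14). Without the 3 arrays that stood apart the rises were 0.63 and 0.59, and with the ACTB covariate 0.53 in each line.

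By their brightest probe sets, SLC30A4 and SLC30A9 had no call at a level above the filter in any line. SLC30A4 was called in TALL-1 (0.45 ± 0.12, limma adjusted p = 0.00604), but its treated arrays read only 2.81, 2.82 and 2.74, below the log2 4 used as the filter, and the line fitted alone gave an adjusted p of 0.055. In SUPT11 the treated arrays read 11.56, 11.64 and 11.52, all above the DMSO arrays, a change of 0.22 ± 0.12 that was not called (adjusted p = 0.721). P12-ICHIKAWA (0.15, 95% interval -0.10 to 0.41) and RPMI-8402 (-0.078, -0.34 to 0.18) overlapped. SLC30A9 changed by 0.054 ± 0.047 in TALL-1, where the arrays did not overlap (adjusted p = 0.411). In the other lines the arrays overlapped, at -0.027 in RPMI-8402, 0.032 in SUPT11 and 0.081 in P12-ICHIKAWA. None was called, and no 95% interval reached beyond 0.18. The second probe set of SLC30A9 changed by -0.33 ± 0.086 in RPMI-8402 (limma adjusted p = 0.00523) and was not called in the other lines. The brightest probe set did not show this change, so the 2 disagreed in RPMI-8402.

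**Figure D2:**
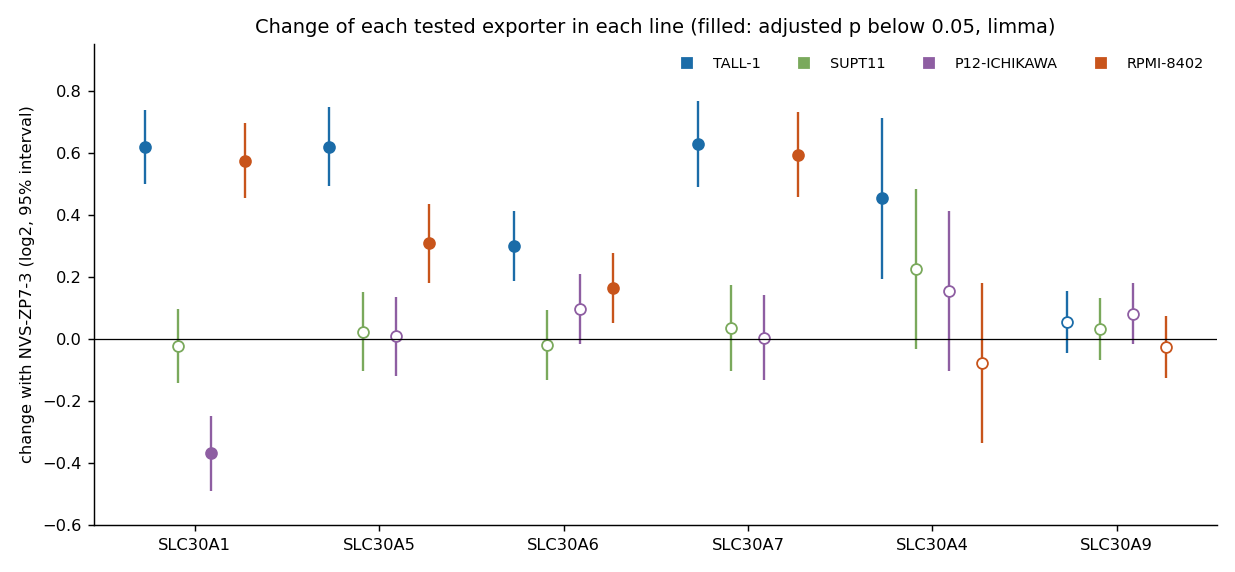
Change with NVS-ZP7-3 (log2, treated minus DMSO mean) of the 6 tested exporters in each line, with 95% intervals from the limma fit; filled points are called and open points are not. SLC30A1 and SLC30A7 sit near 0.6 in TALL-1 and RPMI-8402, SLC30A1 is at -0.37 in P12-ICHIKAWA, and the intervals of SUPT11 cross 0.

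**Figure D3:**
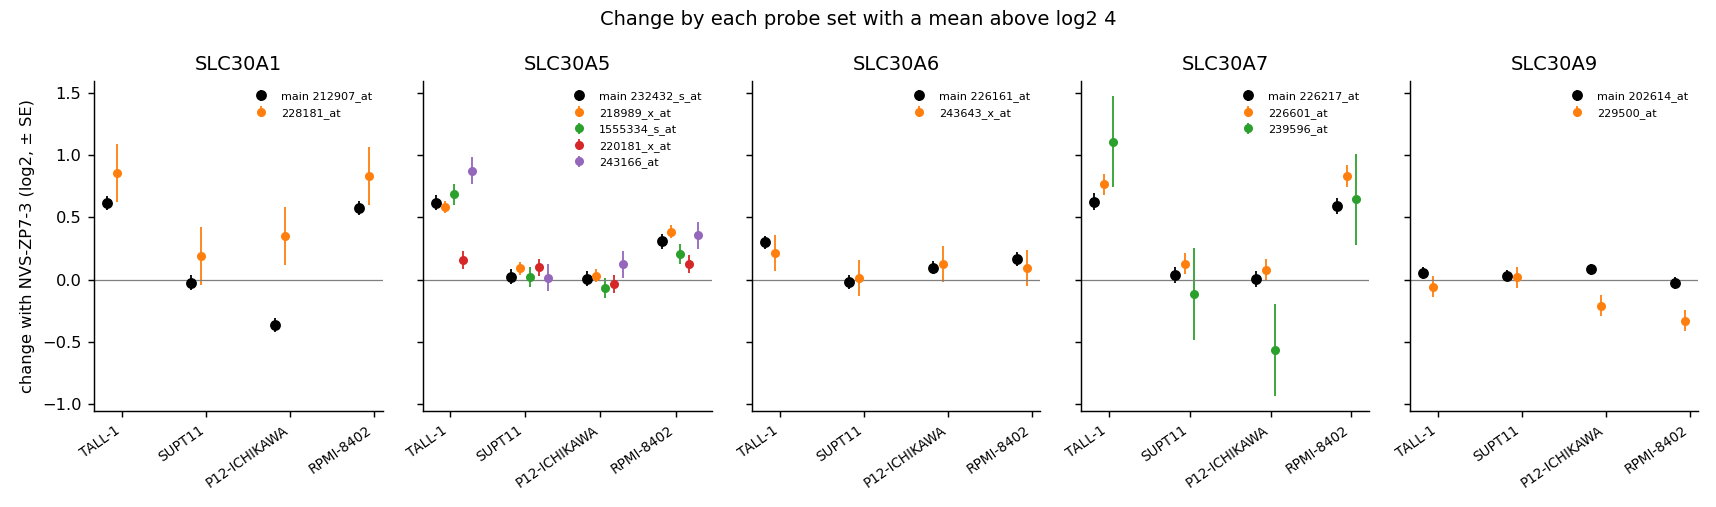
Change with NVS-ZP7-3 (log2, ± SE) by every probe set with a mean above log2 4, for the 5 exporters with more than 1 such probe set; the brightest is in black. Probe sets of SLC30A5 and SLC30A7 lie above 0 in TALL-1 and RPMI-8402, while those of SLC30A1 lie on opposite sides of 0 in P12-ICHIKAWA.

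The response differed between lines for 4 of 6 exporters, against 35.8% of all tested genes (limma F test of the interaction of line and treatment). These were SLC30A1 (adjusted p = 3.15e-08), SLC30A7 (1.40e-05), SLC30A5 (4.16e-05) and SLC30A6 (0.0177), and not SLC30A4 (0.110) or SLC30A9 (0.555). By pairs, 4 of 6 differed for TALL-1 against SUPT11 (26.7% of tested genes), 3 for TALL-1 against P12-ICHIKAWA (21.2%) and 2 for TALL-1 against RPMI-8402 (23.6%). The 2 for TALL-1 against RPMI-8402 were SLC30A5 and SLC30A4, and SLC30A4 lay near the floor in TALL-1, below the filter. For SUPT11 against P12-ICHIKAWA 1 differed (1.82%), for SUPT11 against RPMI-8402 3 (17.4%) and for P12-ICHIKAWA against RPMI-8402 3 (14.4%). SLC30A1, SLC30A5 and SLC30A7 each responded more in TALL-1 and in RPMI-8402 than in SUPT11 or P12-ICHIKAWA. The widest of these gaps was that of SLC30A1 between TALL-1 and P12-ICHIKAWA, 0.99 ± 0.081 (limma adjusted p = 7.98e-08). SLC30A1 was also the 1 exporter whose response differed between SUPT11 and P12-ICHIKAWA (0.35 ± 0.081, adjusted p = 0.0319). With the second probe set of SLC30A1 the interaction was not called (adjusted p = 0.237), and without the 3 arrays that stood apart that of SLC30A6 was not (adjusted p = 0.0546).

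The early secretory exporters were set against SLC30A1 by the difference of their log2 values on each array, which cancels any shift common to both probe sets. The lines went different ways. In P12-ICHIKAWA all 3 gained on SLC30A1, SLC30A5 by 0.38, SLC30A6 by 0.46 and SLC30A7 by 0.37, and treated arrays lay above DMSO arrays for each. In RPMI-8402 SLC30A5 and SLC30A6 fell behind SLC30A1 (-0.27 and -0.41), again with no overlap, and SLC30A7 differed little (0.019). In TALL-1 SLC30A6 fell behind (-0.32), while SLC30A5 (-0.00013) and SLC30A7 (0.0093) moved with SLC30A1. With 3 arrays against 3 the exact two-sided permutation test cannot go below p = 0.1, and each non-overlapping case reached it. In SUPT11 the differences were 0.047, 0.0041 and 0.059, all with overlap.

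Averaged over the 4 lines, opposite differences cancelled. The mean difference was 0.039 for SLC30A5, -0.065 for SLC30A6 and 0.12 for SLC30A7, with exact permutation p = 0.537, 0.445 and 0.0391 over 160000 arrangements within lines, two-sided, and adjusted p = 0.537, 0.537 and 0.117 over the 3 pairs. Without the 3 arrays that stood apart they were 0.013, -0.092 and 0.090. Against the second probe set of SLC30A1, an alternative chosen after seeing the data, the means were -0.32, -0.42 and -0.24, so the sign for SLC30A5 and SLC30A7 depended on the probe set. The gain in P12-ICHIKAWA is the fall of the first SLC30A1 probe set seen from the other side, which the second did not show.

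**Figure D4:**
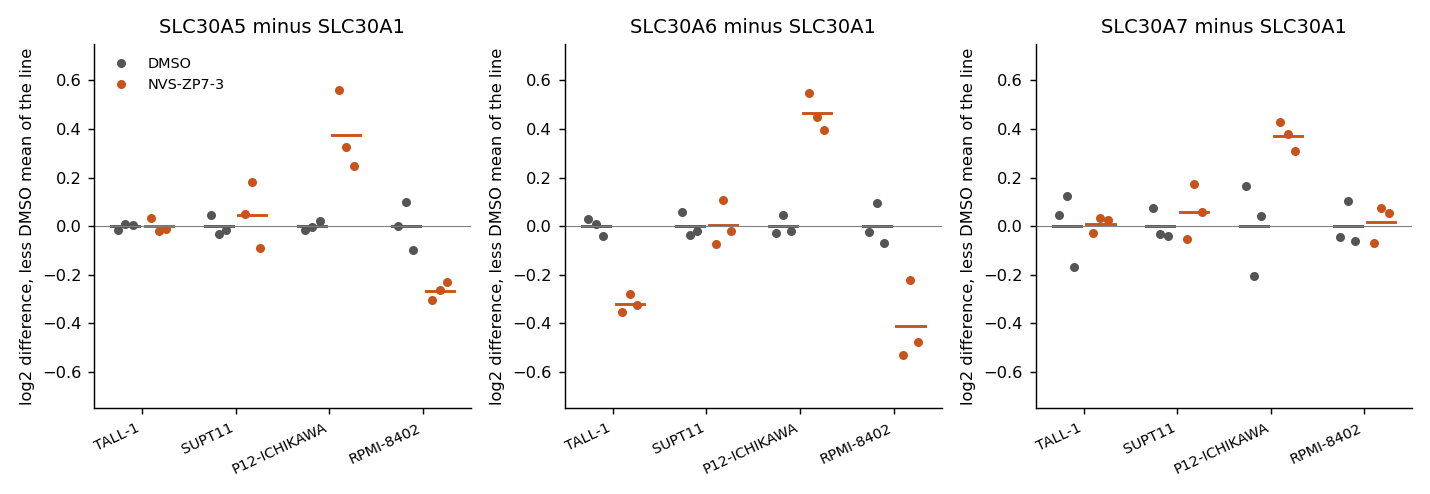
Difference in log2 value between SLC30A5, SLC30A6 or SLC30A7 and SLC30A1 on each array (points; lines are means), less the DMSO mean of the line, with DMSO in grey and NVS-ZP7-3 in orange. Treated arrays of P12-ICHIKAWA lie above 0 in all 3 panels, and those of RPMI-8402 lie below 0 for SLC30A5 and SLC30A6.

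Across the 24 arrays, after the mean of each line was subtracted, SLC30A5 and SLC30A7 correlated most among the exporters (Pearson r = 0.86), followed by SLC30A1 with SLC30A7 (0.84), SLC30A5 with SLC30A6 (0.83) and SLC30A1 with SLC30A5 (0.82). SLC30A9 showed almost no correlation with SLC30A1 (r = -0.022). The points share lines and treatment, so these values describe the arrays. The tested genes most like SLC30A1 on the same measure were SEC24A, part of the coat of vesicles leaving the ER (r = 0.91), LMAN1, a cargo receptor between ER and Golgi (0.91), and DUSP16, a MAP kinase phosphatase (0.90). SEC24A rose by 0.55 in TALL-1 and 0.44 in RPMI-8402, LMAN1 by 0.44 and 0.47, and DUSP16 by 3.66 and 2.95 (all called by limma), and none of the 3 was called in SUPT11 or P12-ICHIKAWA. The 3 were picked by likeness on these same arrays, so their calls are no separate result. Over the 12 DMSO arrays alone the most like SLC30A1 were PIK3CG (r = 0.996), LY96 (0.992) and PPP3CA (0.99).

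The genes most like SLC30A5 over the 24 arrays, again picked on these same arrays, were AZI2 (r = 0.95), the sheddase ADAM17 (0.95) and the ER thioredoxin-like protein TMX4 (0.95). AZI2 rose by 0.89 in TALL-1 and 0.53 in RPMI-8402 and also by 0.23 in P12-ICHIKAWA (limma adjusted p = 0.0204), where SLC30A5 was not called. Over the 12 DMSO arrays they were CPD (r = 0.976), LYRM2 (0.972) and EFR3A (0.966), and none of those 3 was called for the compound in any line.

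Of 14 listed importers of the SLC39 family, 11 were tested. In TALL-1, 4 were called higher (22.3% of all tested genes) and 2 lower (19.6%). In RPMI-8402, 4 were called higher (15.1%) and 2 lower (21.5%). The counts called lower lie near the share of all tested genes and say nothing particular to the family. In SUPT11 (1.18% higher, 0.582% lower) and P12-ICHIKAWA (4.91% and 2.98%) 0 were called, also at an unadjusted p under 0.05 (limma). SLC39A7 itself rose by 1.77 ± 0.10 in TALL-1 (adjusted p = 1.87e-10) and 1.32 ± 0.10 in RPMI-8402 (1.12e-08), and changed by 0.048 and -0.020 in SUPT11 and P12-ICHIKAWA. SLC39A4, an importer of the plasma membrane, changed by -0.79 ± 0.21 in TALL-1 and by -1.60 ± 0.21 in RPMI-8402 (limma adjusted p = 0.00502 and 7.97e-06), and SLC39A10 was the other importer called lower in both lines. SLC39A13, an importer of the Golgi region, was called higher in RPMI-8402 (0.80 ± 0.19) and not in TALL-1 (0.25 ± 0.19). Its mean over the DMSO arrays of all lines was 4.12, close to the filter of log2 4, so these sizes are uncertain.

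Metallothioneins are small zinc-binding proteins whose genes MTF1 drives. Of 11 listed genes of this group, MTF1 included, 7 were tested, and 0 were called higher in any line by limma (1 in TALL-1 and 1 in SUPT11 at an unadjusted p under 0.05). Each line had at most 1 called lower. Of all tested genes 22.3% were called higher and 19.6% lower in TALL-1, 15.1% and 21.5% in RPMI-8402, 4.91% and 2.98% in P12-ICHIKAWA, and 1.18% and 0.582% in SUPT11, so with 7 genes these counts say nothing particular to the group. MT2A was the 1 called lower in TALL-1 (-0.45 ± 0.12, limma adjusted p = 0.00469), MT1X in P12-ICHIKAWA and MT1G in RPMI-8402, and none was called in SUPT11. MT2A stood at -0.24 ± 0.12 in RPMI-8402 (adjusted p = 0.123). The median change of the 7 was -0.088 in TALL-1 and -0.15 in RPMI-8402.

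Among zinc enzymes and zinc-regulated proteins of the secretory pathway, 14 of 22 listed were tested. In TALL-1 5 were called higher and 0 lower, against 22.3% and 19.6% of all tested genes. In RPMI-8402 4 were called higher and 0 lower, against 15.1% and 21.5%, and in SUPT11 and P12-ICHIKAWA 0 by limma (1 and 2 higher at an unadjusted p under 0.05). ERP44, the chaperone that retains proteins in the early secretory pathway and binds zinc there, rose by 0.65 ± 0.077 in TALL-1 (adjusted p = 1.60e-06) and 0.38 ± 0.077 in RPMI-8402 (adjusted p = 0.00077). ADAM17, a zinc metalloprotease, rose by 0.65 ± 0.054 and 0.35 ± 0.054, and MAN2A1 was the other member called in both lines. PIGO, an enzyme of GPI anchor synthesis, was among the 5 called in TALL-1 (limma adjusted p = 0.000322), but its arrays read 3.20, 2.76 and 2.88 with DMSO, below the filter, and 4.08, 4.04 and 4.12 after treatment, so no size is given. The median change of the 14 was 0.10 in TALL-1 and 0.16 in RPMI-8402.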

How the data were processed

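The values are log2 expression as the authors deposited them, in 1 table of 54675 probe sets by 24 arrays. Per the submitters' processing notes GCRMA and limma were used (no versions), and GCRMA places undetected probe sets at a common floor, here 2.18. Per the labels' protocols, an Affymetrix 3' labelling was used. Arrays have no count depth, so their number limits precision. Gene names came from the annotation of the platform (41097 with 1 gene, 1801 with several, 11777 with none), and 41043 of the first were updated through RefSeq. The brightest probe set stood for a gene.

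A model of 8 group means was fitted to all 24 arrays in limma 3.58.1 (R 4.3.3), with Benjamini-Hochberg adjustment over 10661 genes and calls below 0.05. Differences from SLC30A1 were tested by exact permutation within lines (scipy 1.17.1). Genes named were the 7 exporters, the 3 most correlated with SLC30A1 and with SLC30A5 on each measure, SLC39A7, and up to 3 per list with the largest mean change over the lines among those called. Members and lists were chosen with earlier results of these data known. The limma and permutation steps were tested on simulated data. Alternatives were no filter or a stricter one, single other probe sets or the mean of a gene's probe sets, quantile and median normalization, an intensity trend, fits of 1 line, the replicate number as a block, the ACTB and HBB covariates, leaving out each array and, chosen after seeing the data, leaving out the 3 arrays that stood apart or reading SLC30A1 from its other probe set. Correlations of the deviations of arrays with the same number ran from -0.14 to 0.42, so numbers were not taken as pairs.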

Additional observations from a re-analysis of the deposited data

Results flagged for a closer look

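Treatment effects that differed between the lines by the limma F test of the interaction were those of SLC30A1 (adjusted p = 3.15e-08), SLC30A5 (adjusted p = 4.16e-05), SLC30A6 (adjusted p = 0.0177) and SLC30A7 (adjusted p = 1.40e-05). For SLC30A1 the change ran from -0.37 in P12-ICHIKAWA to 0.62 in TALL-1. SLC30A5 ran from 0.0077 to 0.62 and SLC30A7 from 0.0035 to 0.63 between the same 2 lines. SLC30A6 ran from -0.020 in SUPT11 to 0.30 in TALL-1.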

How the results depend on the processing

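With the mean of all probe sets, 0 exporters were called in P12-ICHIKAWA, where SLC30A1 changed by -0.0060. In RPMI-8402, 3 were called higher and 1 lower (SLC30A9). The mean difference from SLC30A1 was then -0.022 for SLC30A5 and -0.19 for SLC30A6 (exact permutation, adjusted p = 0.0225). The means of SLC30A1 and SLC30A6 include probe sets at the floor on all arrays, and that of SLC30A5 does not. Such probe sets shrink the change of a gene, so these differences and the p-value partly reflect them. Against the other probe set of SLC30A1, chosen after seeing the data, the differences were -0.32 for SLC30A5 (adjusted p = 0.0328), -0.42 for SLC30A6 (0.0063) and -0.24 for SLC30A7 (0.0688). Leaving out each array gave 0.017 to 0.057 for SLC30A5, -0.089 to -0.050 for SLC30A6 and 0.089 to 0.14 for SLC30A7, which passed the exact permutation test without DMSO replicate 2 of TALL-1 (0.13, adjusted p = 0.0457). Leaving out each array gave 3 to 4 called exporters in RPMI-8402, 4 to 5 for the interaction and 5 to 6 among DMSO groups, and the reported counts in the other comparisons.

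Changes of opposite sign arose only among uncalled values, apart from SLC30A1 in P12-ICHIKAWA by its second probe set (0.35). By the mean of all probe sets they were -0.0019 (SLC30A9 in TALL-1), 0.055 (SLC30A1 in SUPT11), -0.16 (SLC30A7 in P12-ICHIKAWA) and -0.064 (SLC30A9 in P12-ICHIKAWA). By single probe sets they were -0.057 (SLC30A9 in TALL-1), 0.19, 0.012 and -0.12 (SLC30A1, SLC30A6 and SLC30A7 in SUPT11), and -0.069, -0.037, -0.57 and -0.21 (SLC30A5 by 2 probe sets, SLC30A7 and SLC30A9 in P12-ICHIKAWA). With HBB as a covariate they were -0.0073 (SLC30A5 in SUPT11), -0.051 and -0.025 (SLC30A5 and SLC30A7 in P12-ICHIKAWA), and with the ACTB covariate -0.0055 (SLC30A7 in P12-ICHIKAWA) and 0.13 (SLC30A4 in RPMI-8402). Without the 3 arrays that stood apart they were 0.0031, -0.017 and -0.0074 (SLC30A1, SLC30A5 and SLC30A9 in SUPT11), and the call of SLC30A6 in RPMI-8402 was lost. Leaving out each array gave -0.059 to 0.0031, -0.017 to 0.067, -0.045 to 0.018 and -0.0074 to 0.061 for SLC30A1, SLC30A5, SLC30A6 and SLC30A9 in SUPT11, -0.038 to 0.31, -0.056 to 0.040 and -0.074 to 0.060 for SLC30A4, SLC30A5 and SLC30A7 in P12-ICHIKAWA, and -0.056 to 0.0084 for SLC30A9 in RPMI-8402. The cause of these shifts was not tested.

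With the replicate number as a block, limma called 5 exporters in TALL-1, 1 in P12-ICHIKAWA, 0 in SUPT11, 5 on average, 3 for the interaction and 3 in RPMI-8402, where SLC30A6 was lost (adjusted p = 0.0586). No paired analysis was possible for the DMSO groups because different lines share only a number. Signal near the floor limits SLC30A3, and SLC30A4 in TALL-1.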
